A study of Mus musculus with 30 samples.

Results

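The IL-6 family was followed through postoperative ileus in the *muscularis externa* (*ME*, the muscle layer) of the mouse small bowel, once in mRNA bound to the ribosomes of enteric glia and once in total *ME* RNA. The members were set by name: 5 ligand genes (*Il6*, *Lif*, *Il11*, *Clcf1* and *Osm*), 3 receptor genes (*Il6st*, *Osmr* and *Il6ra*) and 2 genes that act inside the cell (*Stat3* and *Socs3*). These 10 genes were all found, among 24601 genes of the *ME* table, 26179 genes of the glial tables and 28586 genes of either. Cytokines of this family share the signal-transducing receptor chain gp130, which *Il6st* encodes and which pairs with a chain specific to the ligand, such as the receptors encoded by *Il6ra* or *Osmr*. Ligand binding activates Janus kinases, which phosphorylate STAT3, and STAT3 switches on *Socs3*, whose protein blocks the same receptor complex. In the gut wall and the nervous system the family is known for acute-phase and injury responses of glia, stromal and immune cells.

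Adult male mice underwent intestinal manipulation (IM), a laparotomy with rolling of the small bowel under isoflurane and with tramadol, and were killed 3, 24 or 72 h later (IM3h, IM24h, IM72h), while naïve mice had no operation. No sham-operated group is among the libraries used here. All mice carried *Rpl22*tm1.1Psam, a Cre-dependent HA tag on the ribosomal protein RPL22 (line B6N.129 Rpl22tm1.1Psam/J). For the glial fraction, called *RiboTag* here, this line was crossed with B6 Tg(Sox10-icre/ERT2)388Wdr/J, in which the *Sox10* promoter drives a tamoxifen-inducible Cre in glia, and tagged ribosomes were precipitated from *ME* lysate (3 naïve libraries of 4 labelled, and 4 each at IM3h, IM24h and IM72h). The *ME* fraction is the total lysate. For *ME* the naïve and IM3h samples (3 each) came from B6.Cg-Tg73.12Mvs/J(Gfap-cre) crossed with the *Rpl22* line, and the IM24h and IM72h samples (4 each) from the *Sox10* cross. For *ME*, mouse line and time therefore cannot be told apart when IM24h or IM72h is compared with naïve mice or with IM3h, and neither can line and fraction when *RiboTag* is compared with *ME* in naïve mice or at IM3h. The study's figure legends count these samples as mice, while the labels do not tie a library to an animal.

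Libraries held 3010306 to 7899493 counts in *RiboTag* and 6603170 to 12866062 in *ME*, and no pair was identical. Of these counts, *AY036118*, a gene to which ribosomal RNA reads are often assigned, took 2.02 to 14.0% in naïve and IM3h *RiboTag* libraries, 22.2 to 59.2% at IM24h and 58.0 to 80.1% at IM72h, so fewer counts were left for the members at the late times. In *ME* it took 16.1 to 33.5% in naïve and IM3h samples and 1.33 to 6.50% later, a split that runs with the mouse line. Glial markers, among them *Sox10*, *S100b* and *Gfap*, summed to 1567 to 1900 CPM (counts rescaled so that library totals match) in naïve *RiboTag* libraries, and all 7 of the list were detected in every group of *RiboTag*. At IM72h their sum in *RiboTag* ranged from 161 to 1461. Smooth muscle markers were also present in *RiboTag* (4598 to 7027 CPM in naïve libraries), and their source was not tested. In a fit with 1 scaling over both fractions of naïve mice, 6 of 7 glial markers were higher in *RiboTag* than in *ME* (median log2 difference 3.26) and 5 of 7 smooth muscle markers lower (median -0.88), against 13.5% and 12.8% of all genes. CPM below were scaled by TMM (trimmed mean of M values, a factor for library composition) within each fraction, so they are read across times and not between fractions. Libraries are given from lowest to highest value.

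Promoters are shown for *Il6*, *Lif*, *Il11* and *Socs3*, the members with the largest fitted changes at IM3h in both fractions, to set the regulatory letters beside the counts. Each window runs 5′ to 3′ along the gene, 250 bases before to 50 bases after a RefSeq start site (build GRCm38.p6). Capitals mark matches to 4 motifs searched on both strands: TTCNNNGAA for STAT factors, GGANTTTCC for NF-kB, TGANTCA for AP-1 and TGACGTCA for the cyclic AMP response element (CRE).
Il6 (chr5:30012864-30013163, plus strand): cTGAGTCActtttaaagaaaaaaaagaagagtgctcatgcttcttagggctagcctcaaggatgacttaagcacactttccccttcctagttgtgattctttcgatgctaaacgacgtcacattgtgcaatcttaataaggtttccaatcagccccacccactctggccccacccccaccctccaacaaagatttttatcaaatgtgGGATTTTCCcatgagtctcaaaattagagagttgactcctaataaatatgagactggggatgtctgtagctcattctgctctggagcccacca
Lif (chr11:4257318-4257617, plus strand): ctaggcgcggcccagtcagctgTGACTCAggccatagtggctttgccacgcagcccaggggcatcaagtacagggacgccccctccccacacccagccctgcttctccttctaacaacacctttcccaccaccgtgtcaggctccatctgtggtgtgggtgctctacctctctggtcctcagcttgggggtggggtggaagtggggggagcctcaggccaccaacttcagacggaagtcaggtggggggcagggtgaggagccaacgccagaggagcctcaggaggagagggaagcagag
Il11 (chr7:4778092-4778391, minus strand): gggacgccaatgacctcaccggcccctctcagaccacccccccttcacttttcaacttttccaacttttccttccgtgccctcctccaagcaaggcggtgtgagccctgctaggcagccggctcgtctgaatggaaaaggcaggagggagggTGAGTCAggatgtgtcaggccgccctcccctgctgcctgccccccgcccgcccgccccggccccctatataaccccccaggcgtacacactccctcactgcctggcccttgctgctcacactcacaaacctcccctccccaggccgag
Socs3 (chr11:117969317-117969616, minus strand): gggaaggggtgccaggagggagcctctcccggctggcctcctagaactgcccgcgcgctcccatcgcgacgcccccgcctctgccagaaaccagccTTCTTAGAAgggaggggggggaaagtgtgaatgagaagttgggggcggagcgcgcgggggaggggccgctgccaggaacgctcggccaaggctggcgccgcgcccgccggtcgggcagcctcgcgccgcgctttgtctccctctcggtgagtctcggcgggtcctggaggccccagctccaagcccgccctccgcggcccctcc
The *Il6* window held an NF-kB match at -43 to -35 and an AP-1 match at -249 to -243, counted from the start site. The *Lif* match was AP-1 at -228 to -222, and the *Il11* match was AP-1 at -98 to -92, while the other annotated *Il11* start had none. *Socs3* alone of the 8 members with a RefSeq window held the STAT motif, at -154 to -146. *Osmr* had an AP-1 match at 4 to 10, *Il6st*, *Il6ra* and *Stat3* had no match, and CRE was in none of the 9 windows. No matches overlapped. Among 32851 promoters of the same length, 8.3% held the STAT motif, 1.25% NF-kB, 7.81% AP-1 and 1.79% CRE. A match is a string of letters and not a measured binding site.

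At IM3h most of the family was higher in both fractions. In *RiboTag* 6 of the 9 members tested rose (*Lif*, *Il11*, *Il6st*, *Osmr*, *Stat3* and *Socs3*) and none fell, by edgeR's quasi-likelihood test with Benjamini-Hochberg adjustment over all genes and an adjusted p under 0.05. Among all 16053 genes tested there, 8.86% rose and 4.44% fell. The median fitted log2 fold change of the 9 was 1.65, also with *Il6* set to its lower bound, against -0.04 for all genes. By the threshold the study used, an unadjusted p under 0.05 and more than 2-fold, 7 members were higher (the 6 above and *Il6*), against 11.8% of all genes. In *ME* all 9 members tested rose, against 19.3% of 15333 genes that rose and 13.4% that fell, and their median was 3.36 against 0.00. Over the same comparison in *ME*, fibroblast markers went from 1952 to 2067 to 882 to 989 CPM in sum (4 of 5 fell) and mesothelial ones from 62.3 to 89.1 to 1.03 to 9.31 (3 of 3 fell), and their part in the member results was not tested. *Osm* was too low to be tested at IM3h in either fraction. Comparisons with naïve mice share the same naïve libraries.

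In *RiboTag* the calls at IM3h were not equally firm. *Il11* and *Socs3* passed in each of the 7 fits that left out 1 library. Without naïve library 2 or 3, or IM3h library 2, they were the only 2 members called, and 3 were called without IM3h library 1 or 3 (libraries are numbered in the order of the deposited table). A fit over all 4 *RiboTag* groups, which shares 1 estimate of the spread with the IM72h libraries, called 0 members, with an adjusted p of 0.799 for *Il11* and 0.881 for *Socs3*. With the scale set by library totals 3 members were called, and 976 of 16053 genes rose. With that of *Actb*, *Hsp90ab1* and *Rplp1* 2 members were called, and 242 genes rose. All these members kept the same direction. Marker sums of *RiboTag* libraries at IM3h were 1322 to 2857 CPM for glia (2 of 7 rose and 2 fell), 215 to 303 for 5 fibroblast genes (3 fell, against 643 to 756 in naïve mice), 65.2 to 129 for 8 macrophage genes (0 passed, against 94.8 to 195) and 3.40 to 10.7 for neutrophils (*Ly6g* at 0, against 1.24 to 3.18). Smooth muscle markers summed to 1971 to 5083 CPM (2 of 7 fell, against 4598 to 7027 in naïve mice). Mesothelial ones gave 6.49 to 68.1 (2 of 3 fell, against 53.8 to 190). Markers of interstitial cells of Cajal gave 59.3 to 140 (1 of 3 fell, against 162 to 223). Neuron markers gave 626 to 1426 (1 of 7 rose, against 496 to 1045). The part of all these cell types in the member results was not tested.

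**Figure D1:**
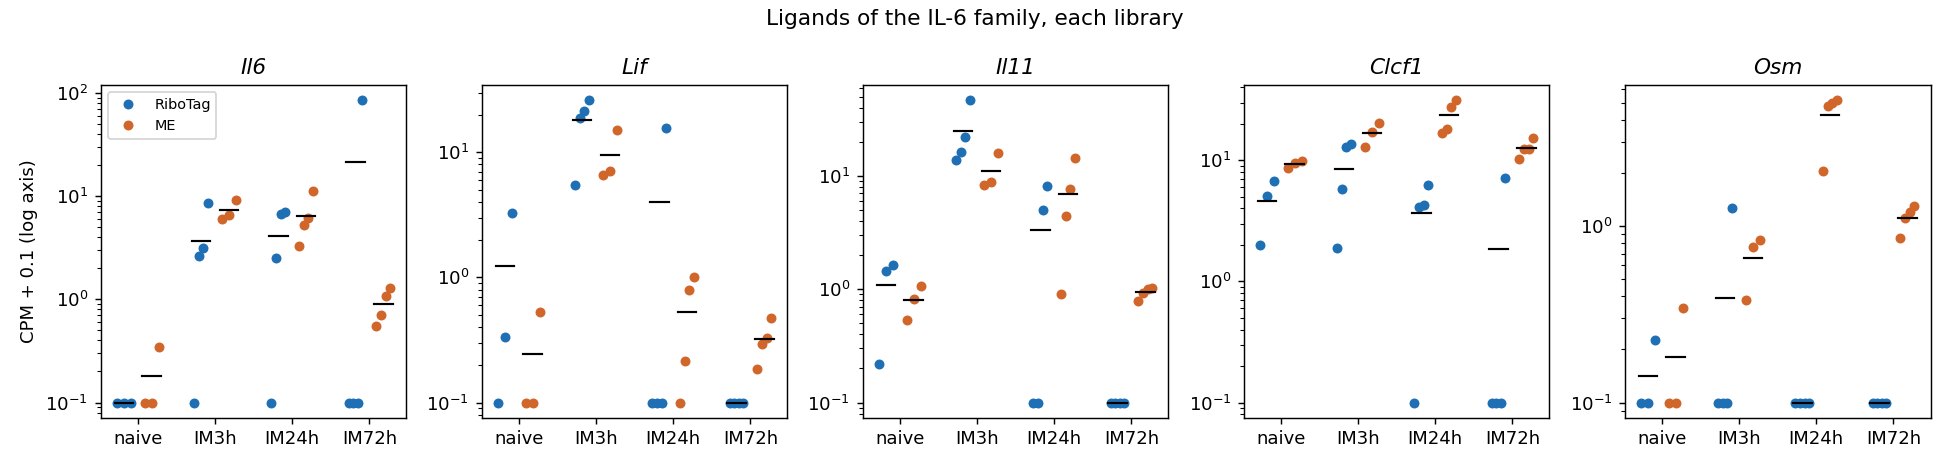
CPM + 0.1 of the 5 ligand genes on a log axis, with 1 point for each library, a line at each group mean, *RiboTag* in blue and *ME* in orange, and time along the x axis (fractions were scaled separately). *Lif* and *Il11* lie above every naïve library at IM3h in both fractions, and *Osm* is highest at IM24h in *ME*, where all 4 *RiboTag* libraries are at 0.

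*Il6* encodes the family's namesake, a cytokine of acute inflammation (chr5:30013114-30019981, plus strand, GRCm38). In *RiboTag* its level was 0 in each of 3 libraries of naïve mice and 0, 2.55, 3.06 and 8.60 CPM at IM3h. Later values were 0, 2.39, 6.65 and 6.87 at IM24h and, at IM72h, 0, 0, 0 and 85.6. Against a floor of 3 counts over the naïve group, *Il6* was at least 30.8-fold higher at IM3h and at least 32.8-fold higher at IM24h, yet 1 library of each group was at 0 and overlapped naïve mice. Library 4 held 92 of the 157 counts at IM3h, and without it the bound was 17.0-fold. Without naïve library 1, 2 or 3 the bounds were 21.2, 20.0 and 20.5 at IM3h and 22.6, 21.3 and 21.8 at IM24h. By edgeR neither time passed (adjusted p = 0.0522 and 0.18). The IM3h value passed without IM3h library 3 (adjusted p = 0.0285) and under 3 of 8 other settings (no filter, no scaling and DESeq2), the adjusted p ranging from 0.00183 by DESeq2 to 0.668 in the fit over all groups. At IM24h DESeq2 alone called it (adjusted p = 0.0450). At IM72h all 180 counts came from 1 library, on 1 transcript (*Il6-203*), and the other 3 libraries were at 0, so no level can be read from that group. In *ME* the level was 0, 0 and 0.242 CPM in naïve mice and 5.92, 6.48 and 9.15 at IM3h. The IM24h group then held 3.20, 5.17, 6.0 and 11.1 and the IM72h group 0.455, 0.604, 0.978 and 1.18. No library after IM overlapped the naïve ones, and on counts *Il6* was 76.1-fold higher (95% counting interval 20.7 to 635) at IM3h and 68.6-fold higher (95% counting interval 18.8 to 569) at IM24h (counting error only, adjusted p = 0.000113 and 0.00132). At IM72h, where it was too low to be tested, it was still 8.26-fold higher (95% counting interval 2.15 to 70.5). The 2 naïve counts lay in sample 3, without which *Il6* was at least 31.0, 27.9 and 3.36-fold higher at the 3 times, and without naïve sample 1 the ratios were 46.4, 41.8 and 5.04. From IM24h to IM72h it fell by 3.02 ± 0.50 on the log2 scale (adjusted p = 0.000844), with all 4 IM72h samples below all 4 at IM24h.

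*Lif* encodes leukemia inhibitory factor, a ligand of gp130 and the LIF receptor (chr11:4257557-4272514, plus strand). It stood at 0, 0.237 and 3.18 CPM in naïve *RiboTag* libraries and at 5.42, 18.6, 21.5 and 26.1 at IM3h. The groups did not overlap, and the fitted log2 fold change was 4.04 ± 1.06 (adjusted p = 0.0261). Of the 27 naïve counts 25 came from 1 library and 1 transcript (*Lif-203*), while the IM3h counts lay on *Lif-201* and *Lif-202* with 0 on *Lif-203*. Leaving out 1 library at a time, *Lif* kept its call without naïve library 1 or IM3h library 4 and lost it in the 5 other fits, with log2 fold changes of 3.46 to 7.19. At IM24h *Lif* was seen in 1 *RiboTag* library (15.5 CPM, 35 counts) and at IM72h in none. In *ME* it went from 0, 0 and 0.431 CPM in naïve mice to 6.48, 6.98 and 15.1 at IM3h, 101-fold higher (95% counting interval 27.6 to 841) on counts (adjusted p = 0.000224). It then fell by 4.35 ± 0.83 on the log2 scale to 0, 0.115, 0.700 and 0.911 CPM at IM24h (adjusted p = 0.00393), and stood at 0.0840, 0.195, 0.226 and 0.377 at IM72h. Both later groups overlapped the naïve one and were too low to be tested against it. On counts they were 4.73-fold higher (95% counting interval 1.13 to 42.0) at IM24h and 2.36-fold higher (95% counting interval 0.526 to 21.7) at IM72h than in naïve mice. The 2 naïve counts lay in sample 2, without which *Lif* was at least 52.6, 2.46 and 1.23-fold higher at the 3 times. Without naïve sample 1 or 3 the ratio was 61.6 or 61.7 at IM3h, 2.88 or 2.89 at IM24h and 1.44 at IM72h either way, and without IM24h sample 3 it was 2.89 at IM24h.

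*Il11* encodes interleukin-11, a stromal cytokine that signals through gp130 (chr7:4772373-4782859, minus strand). *RiboTag* libraries held 0.119, 1.36 and 1.52 CPM in naïve mice and 13.6, 16.2, 22.1 and 46.5 at IM3h, a mean of 24.6 ± 15.0 CPM (SD, n = 4) against 1.0 ± 0.768 CPM (SD, n = 3). It rose by 4.72 ± 0.85 on the log2 scale (adjusted p = 0.00373), with every IM3h library above every naïve one. At IM24h *RiboTag* held 0, 0, 4.90 and 8.02 CPM, all below IM3h, although the step down did not pass (log2 -2.85 ± 1.25, adjusted p = 0.296). At IM72h *Il11* had 0 counts in 4 libraries, at least 2.33-fold lower than in naïve mice against the floor of 3 counts, with no overlap (exact two-sided permutation test p = 0.0286, the smallest that 4 against 3 allows, or 0.159 adjusted over 100 such tests). In *ME* its values were 0.431, 0.725 and 0.969 CPM in naïve mice and 8.17, 8.71 and 15.8 at IM3h. At IM24h the values were 0.801, 4.33, 7.58 and 14.4, and at IM72h they were 0.679, 0.828, 0.910 and 0.925. It rose by 3.88 ± 0.42 at IM3h (adjusted p = 8.93e-05) and stayed above naïve mice at IM24h in 3 of 4 samples (3.18 ± 0.88, adjusted p = 0.0218), a call lost without any of the 3 naïve samples (log2 fold changes of 2.95 to 3.46). Only 4 of the fits without 1 sample could test *Il11* at IM24h, and 1 of them called it. It fell by 3.03 ± 0.69 from IM24h to IM72h (adjusted p = 0.00559).

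*Clcf1* encodes cardiotrophin-like cytokine factor 1, a neurotrophic ligand of the CNTF receptor (chr19:4214238-4223490, plus strand). Its *RiboTag* values overlapped at all times: 1.91, 4.98 and 6.66 CPM in naïve mice and 1.78, 5.70, 12.7 and 13.7 at IM3h. Thereafter IM24h gave 0, 3.99, 4.15 and 6.11 and IM72h gave 0, 0, 0 and 7.04. No test passed (adjusted p = 0.469, 0.964 and 0.765). *ME* samples lay closer together, at 8.46, 9.32 and 9.69 CPM in naïve mice and 12.8, 17.0 and 20.1 at IM3h. Later values were 16.7, 17.9, 27.4 and 31.3 at IM24h and, at IM72h, 10.2, 12.3, 12.3 and 15.0. *Clcf1* rose by 0.92 ± 0.22 at IM3h and 1.35 ± 0.27 at IM24h (adjusted p = 0.0098 and 0.00469), the former lost without naïve sample 1 or IM3h sample 2, and fell by 0.94 ± 0.23 from IM24h to IM72h (adjusted p = 0.00842). It was thus the ligand with the smallest fitted change in *ME* at IM3h and IM24h, and its mean was higher at IM24h than at IM3h. The gene overlaps *AC109138.7* on the same strand and the microRNA gene *Gm26115* on the other, so its counts may be shared.

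*Osm* encodes oncostatin M, a cytokine of neutrophils and macrophages that binds gp130 with the *Osmr* product (chr11:4236420-4241026, plus strand). *RiboTag* held 1 count in naïve mice, 10 counts at IM3h, all in 1 library (1.16 CPM), and 0 at IM24h and IM72h. On these counts IM3h was 5.89-fold higher (95% counting interval 0.838 to 256) than naïve mice, an interval that includes no change. In *ME* the level was 0, 0 and 0.242 CPM in naïve mice and 0.282, 0.665 and 0.738 at IM3h. The IM24h group then held 1.95, 4.71, 4.92 and 5.10 and the IM72h group 0.755, 1.01, 1.11 and 1.2. Every sample after IM was above the naïve ones, and *Osm* was the 1 ligand that rose between IM3h and IM24h, when it was 45.2-fold higher (95% counting interval 12.3 to 376) than in naïve mice (adjusted p = 0.00294). Without naïve sample 1, which held both naïve counts, it was at least 18.4-fold higher, and without naïve sample 3 the ratio was 27.6. The step from IM3h to IM24h was 2.91 ± 0.65 on the log2 scale (adjusted p = 0.00873) and *Osm* fell by 2.06 ± 0.44 from IM24h to IM72h (adjusted p = 0.00379). Neutrophil markers in *ME* (*S100a8*, *S100a9*, *Cxcr2*, *Csf3r*, *Retnlg*, *Ly6g*) summed to 0.846 to 0.861 CPM in naïve mice, 21.6 to 30.1 at IM3h, 44.3 to 212 at IM24h and 19.5 to 56.1 at IM72h, with 5 of 6 detected in naïve samples and *Ly6g* at 0 in all groups. Macrophage markers (*Cd68*, *Csf1r*, *Adgre1*, *Cx3cr1*, *Mrc1*, *C1qa*, *Lyz2*, *Ccr2*, all 8 detected) summed to 210.3 to 232, 178 to 199.9, 553 to 1081 and 1011 to 1269 CPM. Their part in the *Osm* result was not tested. In bulk RNA like this, more cells of a type and more RNA per cell cannot be told apart.

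*Il6st* encodes gp130, the chain all of these ligands use (chr13:112464070-112510086, plus strand). Its *RiboTag* values were 132, 170.0 and 218 CPM in naïve mice and 232, 311, 414 and 418 at IM3h. At IM24h the values were 177, 219, 246 and 251, and at IM72h they were 147, 152, 159.7 and 240.2. All IM3h libraries lay above the naïve ones and the gene rose by 1.04 ± 0.28 (adjusted p = 0.03), a call kept without naïve library 1 or IM3h library 4 and lost without any of the 5 others. Later groups overlapped naïve mice (0.711 and 0.99 as adjusted p). From naïve mice through IM3h and IM24h to IM72h the share of *RiboTag* counts, pooled over libraries, on *Il6st-203* was 98.3%, 94.0%, 64.1% and 27.8%, and that on *Il6st-201* was 0.660%, 6.0%, 35.9% and 70.0%. In *ME* the shares followed no such order, at 86.8%, 62.9%, 81.6% and 73.8% for *Il6st-203* and 13.1%, 36.9%, 18.4% and 26.2% for *Il6st-201*. Single *RiboTag* libraries of IM72h held up to 270 counts on *Il6st-203* and as few as none, and the shares were not tested. They are estimates from single 3′-end reads, and at the late times they run with the *AY036118* share. No change of transcript is therefore read from them. *ME* held 183, 192 and 215 CPM in naïve mice and 264, 304 and 315 at IM3h. Thereafter IM24h gave 207, 263, 297 and 347 and IM72h gave 216, 233, 247 and 269. It rose by 0.63 ± 0.11 at IM3h (adjusted p = 0.00217), the smallest change of the 9 members tested, and the later values did not pass (0.50 ± 0.19, adjusted p = 0.069 at IM24h and 0.26 ± 0.12, adjusted p = 0.0783 at IM72h).

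*Osmr* encodes the chain that makes gp130 a receptor for oncostatin M (chr15:6813577-6874969, minus strand). *RiboTag* libraries gave 4.63, 9.48 and 11.6 CPM in naïve mice and 10.9, 23.4, 34.4 and 34.7 at IM3h. Later values were 8.58, 8.87, 12 and 15.5 at IM24h and, at IM72h, 0, 0, 0.440 and 9.60. *Osmr* rose by 1.65 ± 0.49 at IM3h (adjusted p = 0.0423), although the lowest IM3h library lay below the highest naïve one, and the call held in 1 of 7 fits without 1 library, that without IM3h library 4. *ME* showed a far tighter pattern, with 5.68, 6.30 and 6.67 CPM in naïve mice and 55.4, 63.8 and 64.8 at IM3h. The IM24h group then held 27.7, 30.5, 44.2 and 49.0 and the IM72h group 12, 14.0, 14.9 and 17.0. These 4 groups did not overlap, and the fitted change from naïve mice was 3.36 ± 0.16 (adjusted p = 4.19e-07) at IM3h, 2.61 ± 0.26 (adjusted p = 0.000167) at IM24h and 1.2 ± 0.18 (adjusted p = 0.000248) at IM72h. Each step down also passed, by 0.66 ± 0.22 from IM3h to IM24h (adjusted p = 0.0464) and by 1.42 ± 0.21 from IM24h to IM72h (adjusted p = 0.000447).

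*Il6ra* encodes the ligand-binding chain for IL-6 (chr3:89864059-89913196, minus strand). In *RiboTag* it was at 27.6, 27.6 and 43.6 CPM in naïve mice and 40.0, 43.1, 47.9 and 57.2 at IM3h. At IM24h the values were 45.7, 51.0, 51.1 and 77.1, and at IM72h they were 6.60, 13.5, 46.1 and 80.7. None of the comparisons with naïve mice passed (0.57 ± 0.28, adjusted p = 0.222 at IM3h, 0.80 ± 0.45, adjusted p = 0.495 at IM24h), although all IM24h libraries lay above the naïve ones on this scale, and the IM72h libraries spread more than 10 times from lowest to highest. *ME* held 32.4, 34.8 and 34.9 CPM in naïve mice and 85.6, 88.9 and 91.4 at IM3h. Thereafter IM24h gave 46.2, 53.1, 78.3 and 78.5 and IM72h gave 32.1, 33.2, 41.0 and 45.6. It rose at IM3h (1.43 ± 0.11, adjusted p = 9.19e-06) and IM24h (0.91 ± 0.21, adjusted p = 0.00991), the latter lost without naïve sample 3, and fell by 0.79 ± 0.20 from IM24h to IM72h (adjusted p = 0.0106), when it overlapped naïve mice again. The antisense gene *Gm42809* overlaps its start.

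*Stat3* encodes the transcription factor that carries the family's signal to the nucleus (chr11:100885098-100939540, minus strand). *RiboTag* libraries held 209, 235 and 261 CPM in naïve mice and 318, 453, 484 and 594 at IM3h. Later values were 148, 213, 253 and 307 at IM24h and, at IM72h, 68.2, 271, 275 and 341. It rose by 1.03 ± 0.26 at IM3h (adjusted p = 0.0217), without overlap, a call that held without IM3h library 1 or 4 and was lost in the 5 other fits that left out 1 library. The IM24h libraries were again all below IM3h (-0.94 ± 0.33, adjusted p = 0.18). In *ME* the level was 189, 221 and 242 CPM in naïve mice and 685, 757 and 768 at IM3h. The IM24h group then held 274, 339, 358 and 365 and the IM72h group 329, 409, 409 and 449. No sample after IM overlapped the naïve ones, and the change was 1.81 ± 0.12 (adjusted p = 4.48e-06) at IM3h, 0.62 ± 0.17 (adjusted p = 0.0187) at IM24h and 0.84 ± 0.14 (adjusted p = 0.000409) at IM72h. The IM24h call was lost without naïve sample 1 or 2 (adjusted p of up to 0.123). The fall from IM3h to IM24h was 1.10 ± 0.15 (adjusted p = 0.000819), while IM72h and IM24h did not differ beyond their spread (adjusted p = 0.272). The 3′ end of *Stat3* overlaps that of *Stat5a* on the other strand (chr11:100885098-100885169). Whether counting used strand is not given in the sources used here, so reads there cannot be told apart.

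*Socs3* encodes the feedback inhibitor of gp130 signaling and is a standard target of STAT3 (chr11:117966079-117970047, minus strand). Its *RiboTag* values were 3.56, 5.42 and 8.54 CPM in naïve mice and 23.2, 45.4, 49.0 and 76.6 at IM3h. At IM24h the values were 0, 0.409, 5.16 and 9.17, and at IM72h they were 0, 0, 0 and 2.20. It rose by 3.11 ± 0.46 at IM3h (adjusted p = 0.00126), its mean being 5.84 ± 2.52 CPM (SD, n = 3) in naïve mice against 48.5 ± 21.9 CPM (SD, n = 4), with no overlap. All IM24h libraries lay below all IM3h ones, a step that did not pass (-3.56 ± 0.95, adjusted p = 0.073). At IM72h 3 libraries had 0 counts and 1 had 5, all below the naïve libraries, and the fitted change of -3.25 ± 1.33 had an adjusted p of 0.162. Without IM72h library 2 it passed, at an adjusted p of 0.0190. *ME* held 6.46, 10.5 and 17.2 CPM in naïve mice and 282, 405 and 422 at IM3h. Thereafter IM24h gave 38.9, 50.4, 104 and 119 and IM72h gave 43.8, 49.3, 66.2 and 82.4. Every sample after IM was above the naïve ones and the change was 5.02 ± 0.29 (adjusted p = 1.66e-06) at IM3h, 2.74 ± 0.46 (adjusted p = 0.00187) at IM24h and 2.33 ± 0.31 (adjusted p = 7.97e-05) at IM72h. It fell by 2.20 ± 0.36 from IM3h to IM24h (adjusted p = 0.00185), and the IM24h and IM72h samples overlapped (adjusted p = 0.38).

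**Figure D2:**
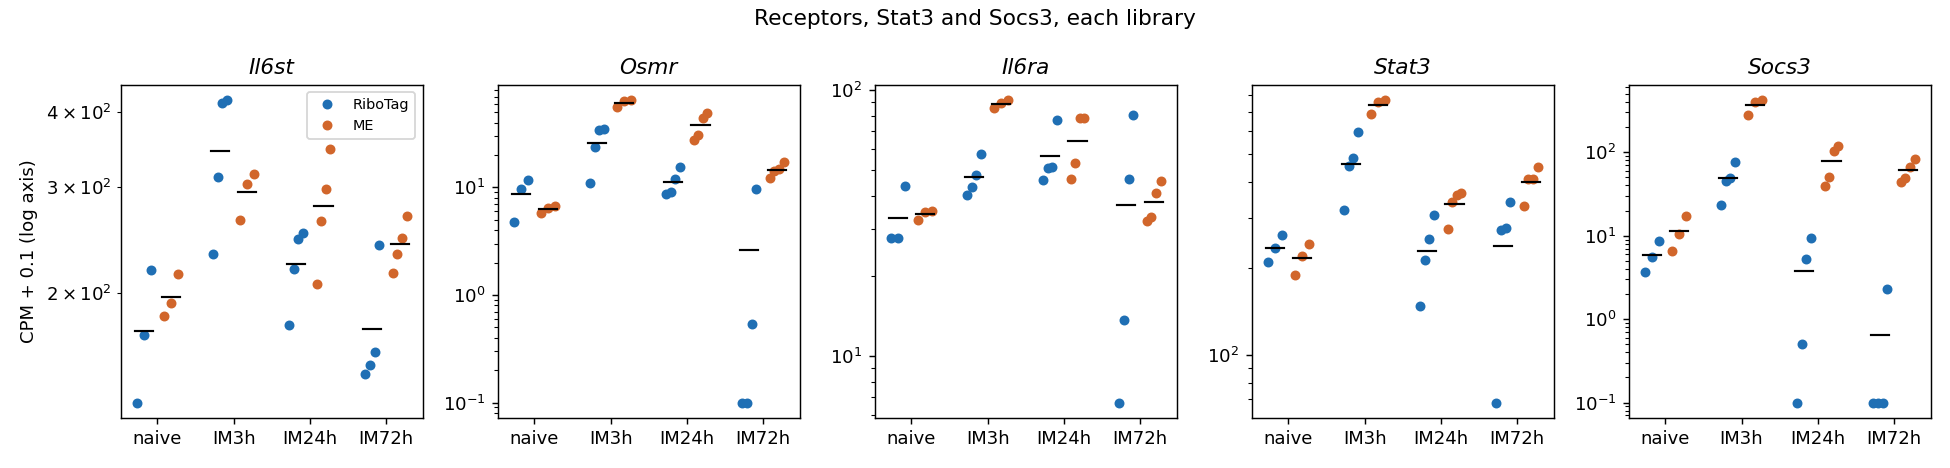
CPM + 0.1 of the 3 receptor genes, *Stat3* and *Socs3* on log axes, with 1 point for each library, a line at each group mean, *RiboTag* in blue and *ME* in orange, and time along the x axis (fractions were scaled separately). In *ME* all 5 genes are above naïve mice at IM3h, and 3 of 4 *RiboTag* libraries of IM72h are at 0 for *Socs3*.

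At the later times no member passed against naïve mice in *RiboTag*, while 8 did at IM24h and 4 at IM72h in *ME*. In *RiboTag* 0 of 8 members tested passed at IM24h (edgeR, while 0.366% of 15304 genes rose and 0.131% fell), with *Il6* higher at an unadjusted p under 0.05 and by DESeq2 (7.14% and 3.26% of genes). By the study's threshold that is 1 member against 6.62% of genes. The median of the 8 was 0.41 against -0.11 for all genes, and libraries of 1 member (*Il6ra*) lay wholly above naïve mice, as did those of 6.59% of the genes tested. At IM72h 0 of 6 passed by edgeR, where 1.05% of 13572 genes rose and 15.1% fell, and 0 by DESeq2, where 3.44% rose and 14.7% fell. *Socs3* was lower at an unadjusted p under 0.05, as were 19.4% of genes. By the study's threshold 0 members were higher and 1 lower, against 3.1% and 19.4% of genes. At IM24h the fitted direction of 7 of the 8 members tested, all but *Il6*, turned under at least 1 other scaling or without some libraries, as did that of *Il6st*, *Il6ra* and *Stat3* at IM72h, so none is read as a direction. From IM3h to IM24h 0 of 9 members passed in *RiboTag* (0.965% of 14193 genes rose and 0.937% fell), while *Il11*, *Stat3* and *Socs3* were lower at an unadjusted p under 0.05 (7.97% of genes) and lay wholly below IM3h (11.6% of genes). From IM24h to IM72h 0 of 5 passed, as did 0% of 9344 genes in either direction, and 0 of 5 at an unadjusted p under 0.05, where 1.49% of genes were higher and 4.83% lower. Glial markers in *RiboTag* summed to 1567 to 1900 CPM in naïve mice, 786 to 934 at IM24h and 161 to 1461 at IM72h. Macrophage sums were 94.8 to 195, 191 to 324 and 233 to 548, and neutrophil sums 1.24 to 3.18, 7.18 to 49.2 and 0.616 to 71.3. Of these markers 0 passed at IM24h, while 1 glial gene fell and 1 macrophage gene rose at IM72h. The part of these cells was not tested.

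In *ME* 8 of 9 members tested rose at IM24h, all but *Il6st*, against 15.6% of 16328 genes that rose and 13.4% that fell, with a median of 2.61 against 0.02. At IM72h 4 of 7 rose (*Osm*, *Osmr*, *Stat3* and *Socs3*), against 29.3% of 16592 genes that rose and 28.3% that fell, with a median of 0.84 against 0.02. Samples lay wholly above the naïve ones for 9 of 9 members tested at IM3h (23.4% of all genes tested), 7 of 9 at IM24h (20.1%) and 6 of 7 at IM72h (31.1%), and for *Osm* at IM3h and *Il6* at IM72h, which were not tested. Between IM3h and IM24h *Osm* rose and *Lif*, *Osmr*, *Stat3* and *Socs3* fell, of 10 members tested (14.2% of 16199 genes rose and 13.4% fell), in a step where the mouse line changed too. Between IM24h and IM72h 6 of 9 fell (*Il6*, *Il11*, *Clcf1*, *Osm*, *Osmr* and *Il6ra*) and none rose, against 18.6% of 16281 genes that rose and 19.9% that fell. Against naïve mice in *ME*, *Osmr*, *Stat3* and *Socs3* passed at all 3 times, *Il6*, *Il11*, *Clcf1* and *Il6ra* at IM3h and IM24h, *Osm* at IM24h and IM72h, and *Lif* and *Il6st* at IM3h. Too low to be tested were *Osm* at IM3h, *Lif* at both later times, and *Il6* and *Il11* at IM72h. Smooth muscle markers in *ME* (7 genes, all detected) summed to 20426 to 21980 CPM in naïve mice, 15265 to 18080 at IM3h, 3295 to 9885 at IM24h and 11576 to 18410 at IM72h. Fibroblast markers (5 genes, all detected) summed to 1110 to 2857 at IM24h (1 rose and 1 fell) and 3277 to 4015 at IM72h (2 rose), and mesothelial ones (3 genes, all detected) to 5.50 to 53.9 (1 fell) and 21.8 to 52.8 (2 fell). The part of these cell types in the changes was not tested. With the scale set by *Actb*, *Hsp90ab1* and *Rplp1*, 4 members rather than 8 rose at IM24h, as did 756 rather than 2553 of all 16328 genes. At IM72h on that scale *Clcf1*, *Il6st* and *Il6ra* turned negative, and 7981 of 16592 genes fell.

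**Figure D3:**
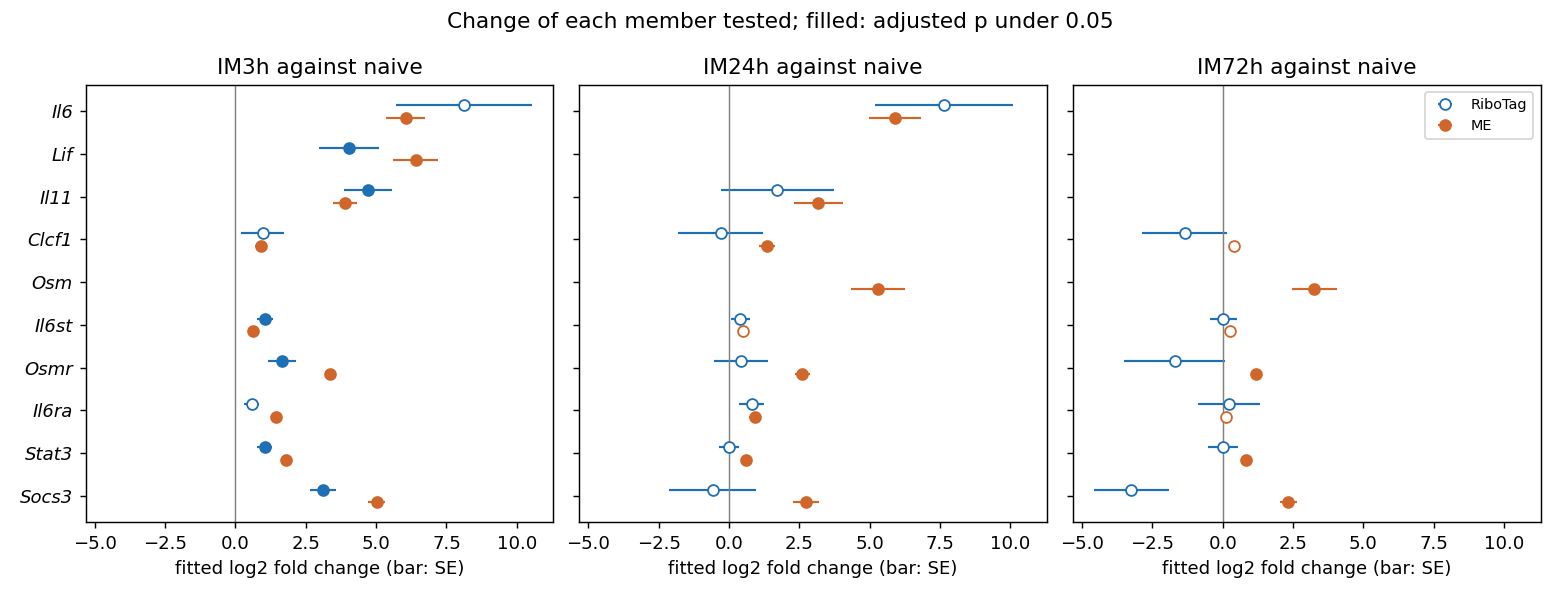
Fitted log2 fold change of each member tested against naïve mice, with its SE as a bar, at IM3h, IM24h and IM72h, *RiboTag* in blue and *ME* in orange, and filled points for an adjusted p under 0.05. In *RiboTag* 6 points are filled at IM3h and 0 later, and in *ME* 9, 8 and 4 are filled.

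The question whether a member was richer on glial ribosomes than in the whole tissue was asked at each time in a fit with 1 scaling over both fractions. The study took an input portion and a precipitated portion from the same lysate. At IM24h and IM72h the 2 fractions may therefore come from the same mice, while the fits treated them as independent. In naïve mice 0 of 6 members tested differed (edgeR), and 1 was higher at an unadjusted p under 0.05, as were 20.1% of genes (*Stat3*, 0.47 ± 0.17, adjusted p = 0.0689), while 13.5% of 14779 genes were higher in *RiboTag* and 12.8% lower. At IM3h *Il11* was higher in *RiboTag* by 1.55 ± 0.47 (adjusted p = 0.0402) and *Socs3* lower by 2.55 ± 0.34 (adjusted p = 0.000911), 1 and 1 of 9 tested, against 11.8% and 12.3% of 15865 genes. The *Il11* call was lost without *RiboTag* library 2 or 3 or any of the 3 *ME* samples, each of which left 0 members higher, whereas 3 were higher and 3 lower without *RiboTag* library 4. At IM24h *Osm* and *Socs3* were lower in *RiboTag*, by 3.93 ± 0.94 for *Socs3* (adjusted p = 0.019 and 0.0188 for *Osm*, with 0 *Osm* counts in *RiboTag*), 2 of 9 against 6.48% of 14699 genes that were lower and 6.16% that were higher. Without *ME* IM24h sample 3 there were 0, and without sample 1 or 4 there was 1. At IM72h *Socs3* was lower by 6.13 ± 1.40 (adjusted p = 0.00871), 1 of 6 against 26.8% of 14577 genes that were lower and 4.28% that were higher. Leaving out any 1 of the 4 *RiboTag* libraries there gave 2 or 3 lower members.

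Whether the change after IM itself differed between fractions was tested with an interaction term. At IM24h and IM72h this term also carries the change of mouse line in *ME*, which cannot be told apart from it. At IM3h 0 of 9 members passed by edgeR, against 0.942% and 0.699% of 17729 genes higher and lower in *RiboTag*. At an unadjusted p under 0.05, 4 were lower (*Osmr*, *Il6ra*, *Stat3* and *Socs3*) against 6.3% of genes, and by DESeq2 1 was (*Socs3*) against 2.22%. At IM24h 0 of 9 passed, against 0.263% and 0.258% of 17845 genes, with 3 lower at an unadjusted p under 0.05 (*Osm*, *Osmr* and *Socs3*) against 7.36% of genes, and 1 by DESeq2 (*Osmr*) against 2.54%. At IM72h *Socs3* passed, at -5.71 ± 1.41 (adjusted p = 0.00906), 1 of 6 against 20.7% of 17045 genes lower and 2.06% higher. The median of all genes in this comparison was -1.01, and *AY036118* took up to 80.1% of counts in the *RiboTag* libraries it rests on. By edgeR the fitted changes of *Osmr* (3.36 ± 0.16 in *ME* against 1.65 ± 0.49) and *Socs3* (5.02 ± 0.29 against 3.11 ± 0.46) at IM3h were not shown to differ between fractions, while DESeq2 called that of *Socs3* (edgeR adjusted p = 0.154 and 0.12).

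Of 39 other genes of the pathway, 10 rose and 1 fell of 33 tested at IM3h in *RiboTag*, and 22 rose and 1 fell of 33 in *ME*, with medians of 0.66 and 1.23. Of all genes 8.86% rose and 4.44% fell in *RiboTag*, with a median of -0.04, and 19.3% rose and 13.4% fell in *ME*, with a median of 0.00. Most of the other ligands were too low to be tested at IM3h: 1 of 5 was in each fraction (*Cntf* in *RiboTag*, *Ctf1* in *ME*), as were 3 of 5 other receptors (*Lifr*, *Il11ra1* and *Cntfr*), and none passed at an adjusted or unadjusted p under 0.05. *Cntfr*, which binds ciliary neurotrophic factor and the *Clcf1* product, was higher in *RiboTag* than in *ME* in naïve mice (2.84 ± 0.52, adjusted p = 0.00484) and at IM3h (2.89 ± 0.50, adjusted p = 0.0033), and *Lifr*, the receptor of LIF, at IM3h (1.29 ± 0.29, adjusted p = 0.0116). *Cntfr* ranged from 5.57 to 14.5 CPM in naïve *RiboTag* libraries and was at 0 counts in all 4 at IM72h, at least 23.4-fold lower (adjusted p = 0.0241). *Il11ra1*, the receptor of IL-11, fell by 1.83 ± 0.22 in *ME* at IM24h (adjusted p = 0.000319) being at 150.5 to 165 CPM in naïve mice and 32.6 to 64.4 CPM at IM24h, and it rose by 0.97 ± 0.17 at IM72h (adjusted p = 0.000649), and the change at IM24h differed between fractions (2.62 ± 0.56, adjusted p = 0.0471). In *ME* *Cntf*, absent from the 3 naïve samples, was at least 27.9-fold higher at IM24h (adjusted p = 0.00192), or at least 17.0-fold without naïve sample 1 or 3, and *Ebi3*, a subunit of IL-27, rose by 2.55 ± 0.73 at IM24h (adjusted p = 0.0253) and 2.85 ± 0.37 at IM72h (adjusted p = 7.58e-05). Of the proteases that shed the IL-6 receptor, *Adam10* rose by 0.96 ± 0.16 in *ME* at IM24h (adjusted p = 0.00207) and *Adam17* by 1.17 ± 0.15 at IM72h (adjusted p = 7.85e-05), while in *RiboTag* neither passed against naïve mice at any time.

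Among kinases, STAT genes and *Ptpn11*, 2 of 7 rose in *RiboTag* at IM3h: *Jak1*, the main kinase at gp130, by 1.34 ± 0.26 (adjusted p = 0.00627) and *Stat5a* by 1.74 ± 0.42 (adjusted p = 0.0167), whose 3′ end overlaps *Stat3*. In *ME* 3 rose at IM3h, among them *Stat5a* by 2.42 ± 0.20 and *Jak1* by 1.23 ± 0.11, 4 of 7 at IM24h (15.6% of all genes), and 5 rose and 2 fell at IM72h, among them *Tyk2* (2.12 ± 0.22, adjusted p = 1.99e-05) and *Jak2* (-0.88 ± 0.17, adjusted p = 0.00127). Of all genes 29.3% rose and 28.3% fell there, so the share that fell was near that of all genes. Of the 5 inhibitors *Pias3*, which binds STAT3, fell by 1.68 ± 0.37 in *RiboTag* at IM3h (adjusted p = 0.0121) and by 0.54 ± 0.17 in *ME* (adjusted p = 0.039). The 4 others rose in *ME* at IM3h, led by *Cish* (3.59 ± 0.23, adjusted p = 2.63e-06), which was at 9.67 to 11.6 CPM in naïve mice and 83.3 to 154 CPM at IM3h. *Ptpn6*, a phosphatase of blood cells, rose in *ME* to 2.83 ± 0.21 at IM24h (adjusted p = 4.65e-05) and 2.88 ± 0.15 at IM72h (adjusted p = 3.55e-07), at times when macrophage markers in *ME* summed to 553 to 1081 and 1011 to 1269 CPM, and their part was not tested. In *RiboTag* at IM72h *Cish* and *Jak2* were at 0 counts in all 4 libraries, at least 16.7-fold lower and at least 22.6-fold lower than in naïve mice (adjusted p = 0.0139 and 0.0208), and with *Cntfr* they were the 3 pathway genes of 29 tested that fell there, a smaller share than the 15.1% of all genes that did. At IM24h 0 of 33 passed in *RiboTag* by edgeR, where 0.366% of all genes rose and 0.131% fell, and by the study's threshold 5 were higher, against 6.62% of genes.

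Of 15 genes known as targets of STAT3, 8 rose in *RiboTag* at IM3h and none fell, with a median of 1.56, against 8.86% and 4.44% of all genes. In *ME* all 15 rose, with a median of 3.08, against 19.3% of all genes. In *RiboTag* *Myc*, a growth regulator, rose by 5.98 ± 0.82 (adjusted p = 0.000734) and was at 0 to 1.66 CPM in naïve mice and 28.5 to 45.8 CPM at IM3h. *Junb*, a subunit of AP-1, rose by 4.70 ± 0.85 (adjusted p = 0.00377) and *Timp1*, an inhibitor of matrix proteases, by 2.83 ± 0.55 (adjusted p = 0.006). The acute-phase gene *Lcn2* ranged from 0.930 to 3.64 CPM in *RiboTag* at IM3h against 0 to 4.07 CPM in naïve mice and did not pass, while in *ME* it rose by 4.09 ± 0.39 (adjusted p = 3.8e-05). In *ME* the largest changes at IM3h were *Cebpd* (5.33 ± 0.25, adjusted p = 4.19e-07), *Bcl3* (4.87 ± 0.29, adjusted p = 1.76e-06) and *Icam1* (4.73 ± 0.27, adjusted p = 1.23e-06). For *Bcl3* and *Icam1* the change at IM3h differed between fractions (-3.40 ± 0.64, adjusted p = 0.016 and -3.09 ± 0.74, adjusted p = 0.0466 for *RiboTag* relative to *ME*), while the 13 others were not shown to differ by edgeR. At IM24h 11 of the 15 rose in *ME* and 1 fell (*Il4ra*, -1.05 ± 0.21, adjusted p = 0.00495), with *Saa3* at 7.86 ± 0.49, *Lcn2* at 7.20 ± 0.53 and *Timp1* at 5.95 ± 0.39 on the log2 scale, and at IM72h 10 rose and 3 fell. Of all genes 15.6% rose and 13.4% fell at IM24h, and 29.3% rose and 28.3% fell at IM72h, a larger share than the 3 of 15. Many of these genes answer to other factors too, so the list does not isolate STAT3.

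**Figure D4:**
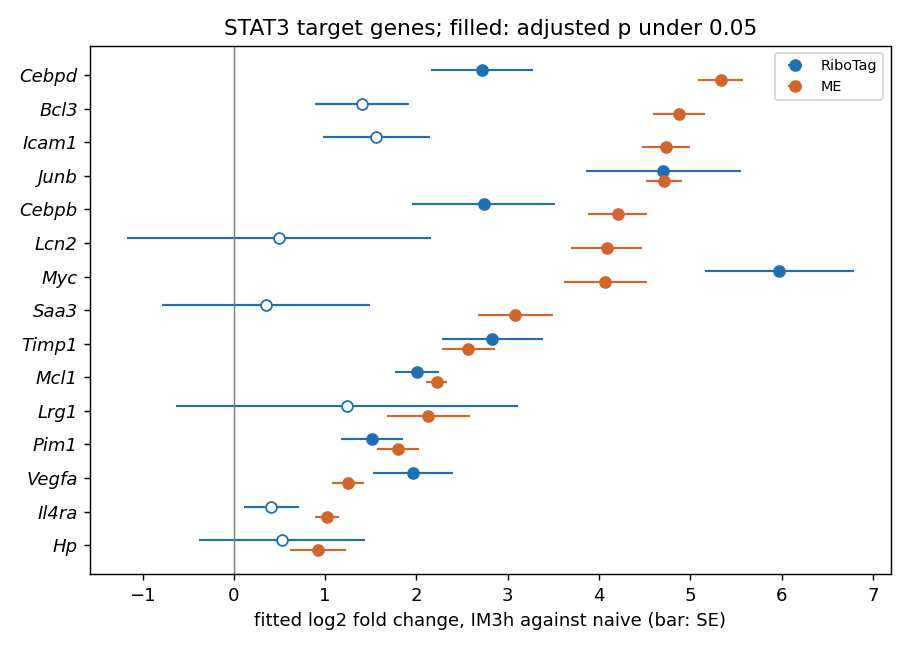
Fitted log2 fold change at IM3h against naïve mice of the 15 STAT3 target genes, with the SE as a bar, *RiboTag* in blue and *ME* in orange, and filled points for an adjusted p under 0.05. All 15 *ME* points and 8 *RiboTag* points are filled, and *Lcn2* and *Bcl3* show the widest gap in favor of *ME*, with open *RiboTag* points.

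Genes whose pattern over all libraries of a fraction was most like a member's were listed by Pearson correlation of log2 CPM, as a description, since these libraries share groups, depth and the *AY036118* share. Over the 15 *RiboTag* libraries the genes most like *Socs3* were *Ipmk* (0.974), *Ier2* (0.973) and *Pus1* (0.968), and those most like *Osmr* were *Arih1* (0.958), *Hs2st1* (0.952) and *Ahctf1* (0.95). Over the 14 *ME* samples *Il6* was most like *Cd44* (0.971), *Cxcl2* (0.968) and *Nip7* (0.965), *Lif* most like *Cemip2* (0.958), *Pde4b* (0.955) and *Ndrg1* (0.954), and *Socs3* most like *Rnf19b* (0.972), *Rgs16* (0.969) and *Bcl3* (0.965). Among the members, *Il6* and *Osmr* ran most alike in *ME* (0.960), and *Lif* and *Il6st* in *RiboTag* (0.808), whereas *Il6* and *Osmr* gave -0.09 in *RiboTag*, where *Il6* counts were sparse.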

How the data were processed

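Total RNA of the *muscularis externa* (*ME*) and RNA of HA-tagged ribosomes (*RiboTag*) of mice were sequenced as single 3′-end reads. The authors trimmed reads with cutadapt, mapped them to mm10 with STAR, assigned them to Ensembl transcripts in Partek and deposited expected counts per transcript or gene without normalization. Counting settings such as strand are not given in the sources used here.

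Library names in the deposited tables match no label, so the group of each library was read from the group entry of its line (naïve, IM3h, IM24h or IM72h, the groups of the labels) and the fraction from the table. There were 14 *ME* and 15 *RiboTag* libraries. Of the 4 labelled naïve *RiboTag* samples 1 was not analysed here. Transcripts were summed to genes by symbol and counts rounded. Within each comparison genes passed filterByExpr, libraries were scaled by TMM and tested two-sided with the quasi-likelihood test of edgeR 4.0.16 in R 4.3.3 (limma 3.58.1 underlies it), with Benjamini-Hochberg adjustment over all genes tested and a threshold of 0.05. SE is the log2 fold change divided by the root of F. DESeq2 1.42.0, other scalings, no filter, 1 fit over all groups and leaving out each library were alternatives. Single members were also compared on mean CPM by a two-sided exact permutation test, whose smallest p is 0.1 for 3 against 3 libraries. Genes with 0 counts were set to a floor of 3 counts over the group, and ratios of counts have 95% intervals for counting error only. The scripts were tested on simulated data.

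Members, gene lists and tests were chosen with earlier results of these data known. The named genes are the 10 members, up to 3 genes per pathway list and comparison with the largest log2 fold change among those called, and the 3 genes most like a member by Pearson correlation of log2 CPM. *Lcn2* and *Pias3* at IM3h and *Il4ra* at IM24h were named after their values were seen. Some genes of the lists are not reported here by name. Promoter windows came from RefSeq (GRCm38.p6) and positions from GENCODE M21 (GRCm38). Depth was 3010306 to 12866062 counts per library.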

Additional observations from a re-analysis of the deposited data

Results flagged for a closer look

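Of 46 member groups of 4 libraries, 8 held 1 library farther from the other 3 than the 95% limit of Dixon's test allows. Chance flags about 1 in 20 groups, but not in 5 of these 8, where 3 libraries at 0 and 1 above 0 always exceed the limit. In *RiboTag* at IM72h 1 library held 85.6 CPM of *Il6*, 1 held 7.04 CPM of *Clcf1* and 1 held 2.20 CPM of *Socs3*, while the other 3 were at 0. In that group the highest library also stood apart for *Il6st* (240.2 CPM) and *Osmr* (9.60 CPM). At IM24h 1 *RiboTag* library held 15.5 CPM of *Lif* and at IM3h 1 held 1.16 CPM of *Osm*, with the other 3 at 0 in each case. In *ME* at IM24h the lowest *Osm* value, 1.95 CPM, stood below the other 3 samples.

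The change of *Socs3* from naïve mice to IM72h differed between fractions by -5.71 on the log2 scale (*RiboTag* relative to *ME*, edgeR's quasi-likelihood test), with the 4 *ME* samples above every naïve one and the 4 *RiboTag* libraries below. This rests on 5 *Socs3* counts in 1 of the 4 *RiboTag* libraries, of which *AY036118* took 58.0 to 80.1%, and the part of depth in it was not tested. The mouse line of *ME* also differs between naïve mice and IM72h, which cannot be told apart from this change.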

How the results depend on the processing

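Apart from leaving out single libraries, 348 of 417 member values kept direction and side of the threshold under the alternatives, as did 266 of 315 without 1 library. Members called at IM3h in *RiboTag* numbered 6, but 3 with library totals, 2 with *Actb*, *Hsp90ab1* and *Rplp1* as the scale, 0 in 1 fit over all 4 groups and 2 to 6 without 1 library. With that fit the all-group spread replaced that of 2 groups, and otherwise the cause was not tested. Of 16053 genes 1422 rose in the main comparison, 976 with library totals and 242 with the 3 reference genes. DESeq2 called 1 member higher at IM24h in *RiboTag* and 1 lower in each interaction at IM3h and IM24h. An unadjusted p under 0.05 with more than 2-fold gave 1 higher at IM24h and 1 lower at IM72h. With library totals 7 members were higher at IM72h in *ME*, as were 8509 of 16592 genes. From IM3h to IM24h in *ME* 3 were higher and 2 lower (7612 and 573 of 16199 genes). For *RiboTag* against *ME* 4 were higher in naïve mice (5186 of 14779 genes) and 3 at IM3h (4972 of 15865). At IM72h 3 were lower (5197 of 14577 genes). In the interactions 1 was lower at IM24h (441 of 17845 genes) and 5 at IM72h (7104 of 17045). The reference genes gave 1 lower at IM72h in *RiboTag* (3010 of 13572 genes). In *ME* they gave 4 higher at IM24h (756 of 16328 genes) and 1 lower at IM72h (7981 of 16592). No scaling gave 1 lower at IM72h in *RiboTag* (3289 of 13572 genes) and 7 higher at IM72h in *ME* (9508 of 16592). No filter also gave 7 members higher at IM72h in *ME*. Without the *RiboTag* IM24h libraries over 50% *AY036118* (chosen after the data were seen), 4 members were lower than in *ME*. Without 1 library, 0 to 2 members were lower at IM72h in *RiboTag* (2 without library 2, 1 without library 3) and 0 to 2 from IM3h to IM24h (2 without IM24h library 3). For *RiboTag* against *ME*, 0 to 1 were higher in naïve mice (1 without *RiboTag* library 2), 0 to 3 higher and 1 to 3 lower at IM3h, 0 to 3 lower at IM24h and 1 to 3 lower at IM72h, with 1 to 2 lower in the IM72h interaction (2 without *RiboTag* naïve library 3 or IM72h library 2 or 3).

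Directions that turned were all at IM24h or IM72h, and none of these values was called in the main comparison. In *RiboTag* at IM24h, the log2 values were, with the reference genes, -0.14 for *Il11*, -1.02 for *Il6st*, -0.89 for *Osmr* and -0.62 for *Il6ra*. With library totals they were -0.49 for *Il6st*, -0.37 for *Osmr* and -0.054 for *Il6ra*, and with no scaling -0.51, -0.38 and -0.076. Without the libraries over 50% *AY036118* they were 0.21 for *Clcf1*, 0.021 for *Stat3* and 0.32 for *Socs3*, and without 1 library -0.69 to 0.12 for *Clcf1* and -0.15 to 0.16 for *Stat3*. In *RiboTag* at IM72h *Il6st*, *Il6ra* and *Stat3* were at -1.59, -1.36 and -1.68 with the reference genes, -1.69, -1.81 and -1.60 with library totals, and -2.17, -2.32 and -2.08 with no scaling. With *AY036118* left out *Il6st* was at -0.092 and *Stat3* at -0.12, and with no filter both were at -0.063 and -0.063. Without 1 library they ranged from -0.27 to 0.19 for *Il6st*, -0.66 to 0.51 for *Il6ra* and -0.29 to 0.26 for *Stat3*. In *ME* at IM72h the reference genes gave -0.21 for *Clcf1*, -0.34 for *Il6st* and -0.49 for *Il6ra*. At IM3h in both fractions and at IM24h in *ME* no member turned under any scaling. The cause of these changes was not tested.

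Scaling moved the median of all genes: in *RiboTag* at IM24h from -0.11 to -0.96 with library totals and -1.51 with the reference genes, at IM72h from -0.40 to -2.13 and -2.07, and at IM3h from -0.04 to -0.24 and -0.45. In *ME* it moved from 0.00 to -0.26 and -0.41 at IM3h, from 0.02 to 0.66 and -0.35 at IM24h, and from 0.02 to 0.62 and -0.58 at IM72h. The share of calls that were higher went from 66.6% to 51.2% and 44.2% in *RiboTag* at IM3h, and in *ME* from 59.0% to 33.9% and 22.7% at IM3h, 53.9% to 89.7% and 28.9% at IM24h and 50.9% to 81.2% and 20.1% at IM72h.

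No paired analysis was possible because the library names in the tables carry no replicate numbers of the labels. Fewer counts were left for the members in *RiboTag* at IM72h, where *Lif*, *Il11* and *Osm* had 0 counts. *Il6*, *Clcf1* and *Socs3* were at 0 in 3 of 4 libraries there. The part of depth in these zeros was not tested.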
